A study of Arabidopsis thaliana with 4 samples.

Results

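The probe sets described here differed between the ku80 mutant and wild type in the same direction whether or not the plants had received bleomycin. They were chosen by the measured values themselves: with intensities under 28 raised to 28 (the floor) and log2 taken, ku80 minus wild type was at least 1, or at most -1, in both the pair of arrays without bleomycin and the pair with it. The choice left 73 of 22746 probe sets, 41 higher and 32 lower in ku80. A difference of 1 on the log2 scale is 2-fold, and all genotype differences below are descriptions of values that made the choice, with no test.

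Bleomycin is a drug that breaks DNA strands, and KU80 belongs to the Ku heterodimer that holds broken DNA ends during non-homologous end joining. Plants that meet damage, wounding or pathogens switch on defence genes through jasmonate, ethylene, salicylic acid and calcium signals. Many of these genes encode enzymes of secondary metabolism or transcription factors of the AP2/ERF family.

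RNA from whole Arabidopsis thaliana plants was measured on 4 ATH1 arrays, 1 per group. The groups were ku80 with a T-DNA insert in At1g48050 (KU80) in the ws-2 background (Ws-2), the same line given bleomycin at 1 mg per litre for 3 days, Ws-2 without the drug, and Ws-2 given the same dose for the same time. No treatment is recorded for the arrays called here "without bleomycin". All plants were at growth stage 1.06, kept at 23 °C under 16 hours of daily light, and each array held RNA pooled from 20 plants. No group was replicated, the mutant was represented by 1 line, and plant-to-plant spread is hidden in the pools. In whole plants, fewer cells of a type and less RNA per cell cannot be told apart.

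The arrays were alike in scale, with trimmed means of 100.01 and medians of 40.0 to 45.7, and 59.2% to 60.6% of probe sets lay above the floor. The 9 hybridisation spike-in probe sets were brighter than on the Ws-2 array without bleomycin by a median ratio of 1.96 in ku80, 1.63 in ku80 with bleomycin and 1.81 in Ws-2 with bleomycin, so the array that enters every difference without the drug as wild type had the dimmest spikes. The 3' to 5' intensity ratio of ubiquitin, a sign of RNA quality, was 1.89 and 1.62 in ku80 without and with bleomycin, against 1.61 and 1.42 in Ws-2. That of actin was 6.21 and 5.23 in ku80, against 6.69 and 6.0 in Ws-2, and that of GAPDH was 0.980 and 0.715 in ku80, against 0.979 and 0.731 in Ws-2, so the 3 ratios did not differ between genotypes in 1 direction. The average array background was 95.8 in ku80 and 105.1 in ku80 with bleomycin, against 107.3 and 106.9 in Ws-2 without and with it. The part of spikes, RNA quality and background in the differences was not tested. Of the markers of plant parts, RCA (leaf) was at 2670.5 and 1758 in ku80 without and with bleomycin, against 1926.4 and 1947.5 in Ws-2, and PYK10 (root) was at 1937.6 and 2275.1 in ku80, against 1822.9 and 2430.6 in Ws-2, so both leaf and root RNA were present on every array. EXPA7, a root hair gene, lay near or below the floor on all 4 arrays, and no flower or seed marker was named on the array. No probe set was paired with KU80, and its transcript could not be used to check the mutant.

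Of 15350 probe sets above the floor on at least 1 array (called measured here), 2.45% passed the threshold as higher in ku80 and 2.2% as lower without bleomycin, and 2.61% were higher and 1.95% lower with it. The 41 probe sets higher in both made up 0.267% of those measured, and the 32 lower in both 0.208%. The comparison without and the comparison with the drug share no array. A further 335 probe sets were higher in ku80 only without bleomycin and 360 only with it, and 305 and 267 were lower only without and only with it, counting among these the 25 that were higher without and lower with the drug and the 11 that were the reverse. Most of the genotype differences of this size were therefore seen in 1 condition.

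**Figure D1:**
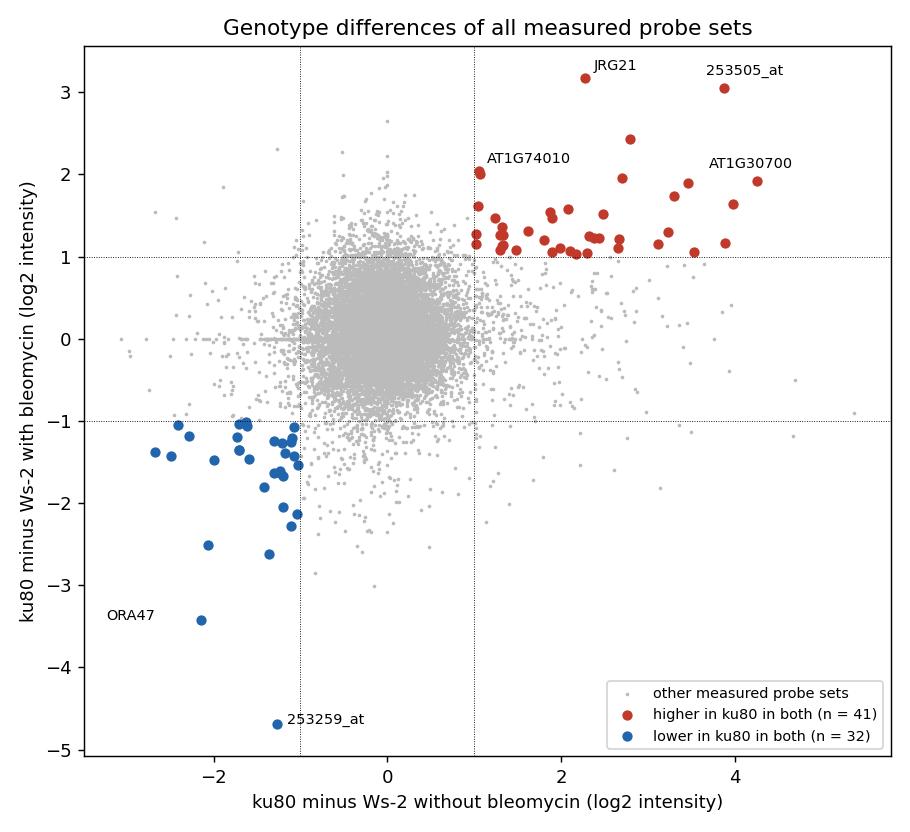
Difference between ku80 and Ws-2 in log2 intensity without bleomycin (horizontal) and with bleomycin (vertical) for the 15350 measured probe sets, with dotted lines at 1 and -1. The 41 probe sets higher in both lie at the upper right and the 32 lower in both at the lower left, and most of them lie close to a dotted line.

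All 73 were measured, as the rule requires, and 25 of the 41 and 20 of the 32 lay above it on all 4. Probe sets at the floor in the dimmer genotype give only a lower bound for the fold, written "at least", and their log2 differences and responses understate the size in the same way. Just inside the threshold were probe sets 255599_at, higher in ku80 by 1.02 without and 1.15 with bleomycin, and 255516_at, at -1.62 and -1.02. Just outside were 254215_at, at 2.57 and 0.99, and 257644_at, at -0.99 and -1.43 (log2 differences, ku80 minus Ws-2). Within 0.1 log2 of the threshold lay 13 probe sets inside and 17 outside among those higher, and 9 inside and 20 outside among those lower, so the exact membership hangs on small differences between single arrays.

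Of the 73, 29 had 1 gene in the platform table (18 higher and 11 lower) and 44 were unnamed here (23 higher and 21 lower). Among the named genes higher in ku80, JRG21 had the largest smaller difference of the 2 comparisons. JRG21 (AT3G55970), a jasmonate-regulated gene for an oxygenase that inactivates jasmonate by hydroxylation, was at 135.7 in ku80 and 252 in ku80 with bleomycin, against 14.1 in Ws-2 and 22.1 in Ws-2 with bleomycin. Both Ws-2 values lay below the floor, so ku80 was at least 4.85-fold higher without and at least 9.00-fold higher with the drug. AT2G38240, of the same oxygenase family, was at 139.6 and 151.3 in ku80 without and with bleomycin, against 27.6 and 63.5 in Ws-2 (at least 4.99-fold and 2.38-fold higher). AT5G05600, another member of that family, fell just outside the choice with differences of 1.41 and 0.99, and AT3G11180, a further member, lay below the floor on all 4 arrays.

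The berberine bridge enzyme-like genes encode oxidases with a flavin cofactor, several of which act in defence. AT1G30700 was at 573.7 and 323 in ku80 without and with bleomycin, against 30.1 and 85.1 in Ws-2, which made it 19.1-fold higher without the drug and 3.80-fold higher with it. AT1G26390 was at 442.8 and 217 in ku80, against 15.7 and 69.9 in Ws-2 (at least 15.8-fold and 3.10-fold higher). Its direct neighbour AT1G26380, whose enzyme makes a defence compound from an indole precursor, was at 413.6 and 275.8 in ku80, against 10.5 and 123.4 in Ws-2 (at least 14.8-fold and 2.24-fold higher). In all 3 genes the difference was smaller with bleomycin: ku80 was dimmer and Ws-2 brighter on the arrays with the drug.

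Enzymes of phenylpropanoid metabolism, the route to lignin, were present as well. CCOAMT (AT1G67980), a caffeoyl-CoA methyltransferase gene, was at 276.1 and 171.3 in ku80 without and with bleomycin, against 26.2 and 51.5 in Ws-2 (at least 9.86-fold and 3.33-fold higher). BGLU46 (AT1G61820), a beta glucosidase that acts on glucosides of lignin precursors, was at 220.5 and 216 in ku80, against 106.6 and 70.8 in Ws-2 (2.07-fold and 3.05-fold higher). AT1G14550, a class III peroxidase gene, was at 177 and 60.0 in ku80, against 9.3 and 27.9 in Ws-2, so that it was at least 6.32-fold and at least 2.14-fold higher, and it left the choice with the floor at 40 (0.58). BGLU46 was among the 8 of 41 whose difference was larger with the drug.

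Further genes higher in ku80 encode other enzymes, a transporter and proteins of signalling. AT2G15220, of the plant basic secretory protein family, was at 411.1 and 428.6 in ku80 without and with bleomycin, against 63.4 and 110.5 in Ws-2 (6.48-fold and 3.88-fold higher), but its probe set can bind related transcripts and its identity is uncertain. AT1G60730, an aldo-keto reductase gene, was at 152.1 and 135.9 in ku80, against 20.6 and 58.2 in Ws-2 (at least 5.43-fold and 2.34-fold higher). The levels of both genes in ku80 were nearly equal on its 2 arrays. AT1G71140, a gene for a MATE family efflux transporter, was at 115 and 264.9 in ku80, against 46.6 and 110.8 in Ws-2 (2.47-fold and 2.39-fold higher). The genes for RING-type zinc finger proteins, many of which attach ubiquitin to other proteins, were AT1G14200 and AT5G60250. AT1G14200 was at 102.4 and 108 in ku80, against 27.3 and 37.2 in Ws-2 (at least 3.66-fold and 2.90-fold higher). AT5G60250 was at 69.9 and 417.2 in ku80, against 13.4 and 162.5 in Ws-2 (at least 2.50-fold and 2.57-fold higher). Both genotypes were brighter with the drug for AT1G71140 and AT5G60250, and the folds of AT1G71140, above the floor on all arrays, were close without and with it. AT5G60250 left the choice with the floor at 40 (0.81).

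AT1G74010, a strictosidine synthase-like gene, was at 99.5 and 361.9 in ku80 without and with bleomycin, against 48.0 and 88.3 in Ws-2 (2.07-fold and 4.10-fold higher). AT2G41730 was at 299.8 and 258.1 in ku80, against 34.6 and 115.9 in Ws-2 (8.66-fold and 2.23-fold higher), with a probe set that can bind related transcripts. AT5G01350 was at 351.2 and 380.7 in ku80, against 114.6 and 153.1 in Ws-2 (3.06-fold and 2.49-fold higher). The remaining named genes lay close to the threshold with the drug. AT1G61360, a receptor-like kinase gene of the S-locus lectin type, was 2.46-fold and 2.12-fold higher, and AT1G68620, an alpha/beta hydrolase gene, was 2.80-fold and 2.11-fold higher. Both left the choice when the arrays were scaled by median ratio (smaller difference 0.998 for AT1G61360 and 0.993 for AT1G68620) or quantile normalized (0.950 for each).

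The 23 unnamed probe sets included the one with the largest smaller difference of all, 253505_at, at 410 and 233 in ku80 without and with bleomycin, against 1.0 and 21.1 in Ws-2 (at least 14.6-fold and at least 8.32-fold higher). Next was 251428_at, at 648.8 and 265.5 in ku80, against 93.4 and 49.3 in Ws-2 (6.95-fold and 5.39-fold higher). These 2 and JRG21 were the only probe sets at least 4-fold higher in both comparisons. Of the 41, 22 were at least 4-fold higher without bleomycin and 5 with it.

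**Figure D2:**
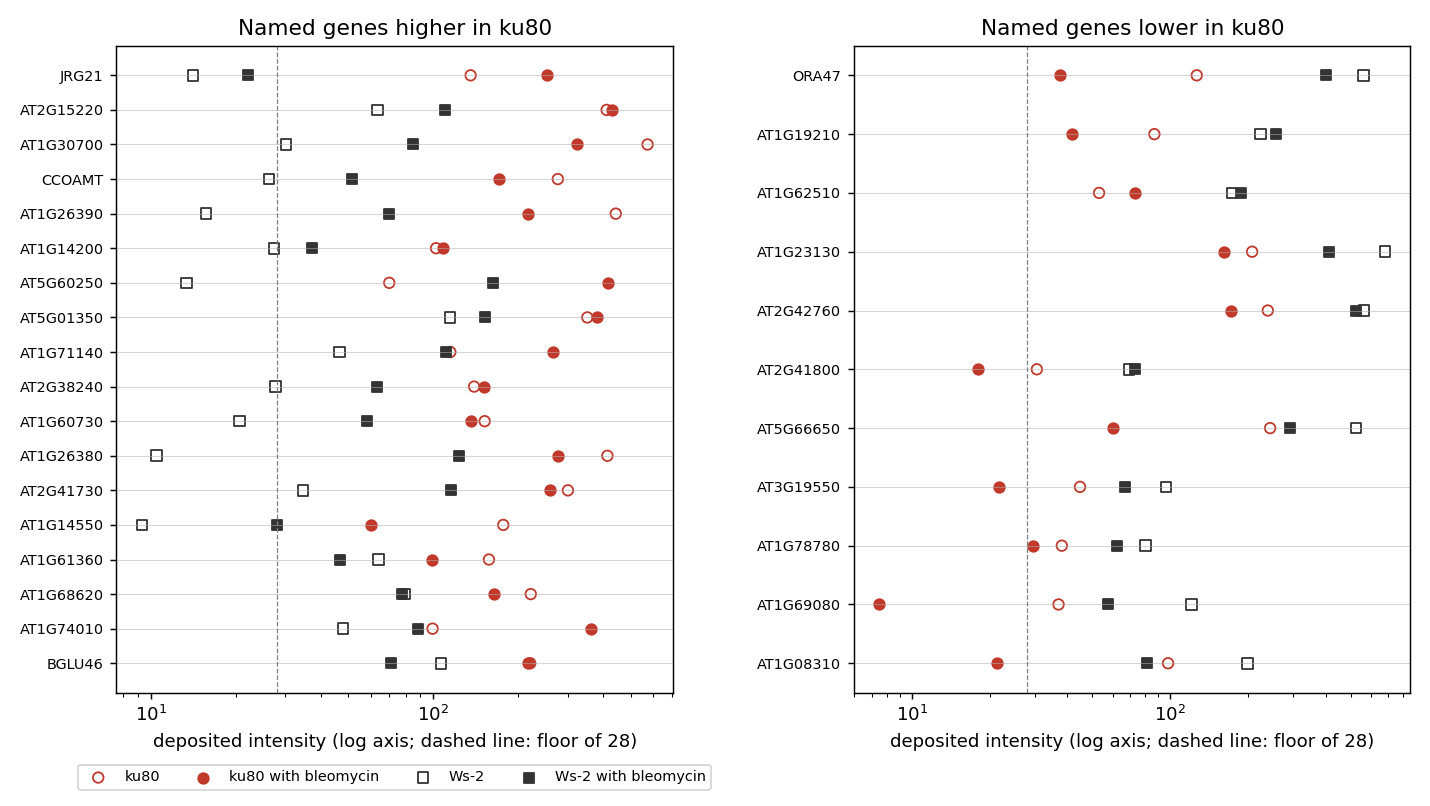
Deposited intensity (log axis) of the 29 named genes on each of the 4 arrays, 1 value per array, with ku80 as circles and Ws-2 as squares, open without and filled with bleomycin. Values left of the dashed line at 28 were raised to it before differences were taken. In AT1G26390 and AT1G26380 both ku80 values lie far to the right of both Ws-2 values, and in ORA47 both lie to the left.

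The named genes lower in ku80 were led by transcription factor genes of the AP2/ERF family. ORA47 (AT1G74930), whose product switches on genes of jasmonate synthesis, was at 126.8 in ku80 and 37.4 in ku80 with bleomycin, against 559.3 in Ws-2 and 400.5 in Ws-2 with bleomycin (4.41-fold and 10.7-fold lower). AT1G19210, another AP2/ERF gene, was at 86.9 and 41.8 in ku80, against 224.1 and 255.8 in Ws-2 (2.58-fold and 6.12-fold lower). AT5G66650, which encodes a protein of the mitochondrial calcium uniporter family, was at 243.8 and 60.0 in ku80, against 524.4 and 292.1 in Ws-2 (2.15-fold and 4.87-fold lower). For these 3 genes both ku80 arrays lay below both Ws-2 arrays, and the difference was larger with the drug.

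Among genes for secreted and lipid-binding proteins, AT1G62510, of the protease inhibitor and lipid transfer superfamily, was at 53.1 and 73.4 in ku80 without and with bleomycin, against 173.4 and 188.1 in Ws-2 (3.27-fold and 2.56-fold lower). AT1G23130, of the polyketide cyclase and lipid transport superfamily, was at 207.7 and 161.3 in ku80, against 679.9 and 413 in Ws-2 (3.27-fold and 2.56-fold lower). AT2G41800, a cell wall protein gene of the DUF642 family, was at 30.5 and 18.1 in ku80, against 69.2 and 73.1 in Ws-2 (2.27-fold and at least 2.61-fold lower). AT1G78780, annotated as of a pathogenesis-related family, was at 38.1 and 29.5 in ku80, against 80.2 and 62.1 in Ws-2 (2.1-fold and 2.11-fold lower). The last 2 were dim on all arrays in ku80, and their differences came to -0.79 for AT2G41800 and -0.63 for AT1G78780 with the floor at 40.

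AT2G42760 was at 238.8 and 172.8 in ku80 without and with bleomycin, against 562 and 525.2 in Ws-2 (2.35-fold and 3.04-fold lower). AT1G08310, an alpha/beta hydrolase gene, was at 98.2 and 21.3 in ku80, against 199.7 and 81.4 in Ws-2 (2.03-fold and at least 2.91-fold lower). AT1G69080 was 3.27-fold and at least 2.05-fold lower, and AT3G19550 2.15-fold and at least 2.39-fold lower, and both left the choice with the floor at 40 (-0.52 and -0.74). Of the unnamed, 259399_at was at 127.9 and 28 in ku80, against 535.2 and 159.4 in Ws-2 (4.18-fold and at least 5.69-fold lower), and 263391_at was at 91.2 and 29.4 in ku80, against 364.8 and 81.6 in Ws-2 (4.00-fold and 2.78-fold lower). ORA47 and 259399_at were the only ones at least 4-fold lower in both. The largest difference with the drug, picked out after the values were seen, was at 253259_at, at 334 and 34.3 in ku80, against 806.3 and 883.6 in Ws-2 (2.41-fold and 25.8-fold lower).

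In the higher set the genotype difference was mostly larger without the drug, while the lower set was more evenly split. These counts describe the differences that made the choice, and no test was made. Of the 41 higher in ku80, 33 had the larger difference without bleomycin, with a median of 2.1 without and 1.26 with it. Of the 32 lower in ku80, 19 had the larger difference with bleomycin, with medians of -1.34 without and -1.42 with it. A Ws-2 array was at the floor for 16 of the 41 and a ku80 array for 12 of the 32, where the floor sets part of the difference. Of the 25 higher ones above the floor on all 4 arrays, 21 had the larger difference without bleomycin (medians 1.9 without and 1.26 with it), and of the 20 such lower ones 13 had the larger with it (-1.30 and -1.47). The choice already sets each ku80 array apart from the Ws-2 array of the same condition, so little overlap between the genotypes is built in. Both ku80 arrays lay on 1 side of both Ws-2 arrays in 40 of the 41 and 26 of the 32, and no share over all measured probe sets was taken. In the other 6 lower probe sets, ku80 without the drug overlapped Ws-2 with it. Within each genotype the drug response shares arrays with the choice and is given as values only. The median response (log2, with minus without bleomycin) of the 41 was 0.05 in ku80 and 0.78 in Ws-2, and that of the 32 was -0.95 in ku80 and -0.59 in Ws-2, against 0.01 and -0.04 over all measured probe sets.

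The bleomycin effect averaged over both genotypes did not enter the rule. It is the sum of the arrays with the drug minus those without it, in equal parts of ku80 and Ws-2. It is not free of the choice, however, as it uses the same 4 arrays. The only residual of its test is the change of the genotype difference between conditions, and the rule cut on both differences. Values at or below the floor also tie it to the choice, in ku80 with bleomycin for 11 of the 32 and in Ws-2 without it for 15 of the 41. The effect was tested with limma in an additive model of genotype and bleomycin over all 15350 measured probe sets with Benjamini-Hochberg adjustment at 0.05. Of the 32 probe sets lower in ku80, 15 (46.9%) fell with bleomycin and 1 rose, against 4.81% that fell and 2.44% that rose of all measured. Their median effect was -0.80 on the log2 scale, against -0.02 over all measured probe sets, and 28 of 32 lay below 0. Probe sets lower in ku80 must be at least 2 times the floor on both Ws-2 arrays, and of all probe sets this bright 4.45% fell. Of the 41 higher in ku80, 4 (9.76%) rose and 1 fell, the median effect was 0.39, and 32 lay above 0. Of all probe sets at least 2 times the floor on both ku80 arrays, 2.87% rose.

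Among the named genes lower in ku80, AT5G66650 fell with bleomycin by 1.43 (log2, SE 0.30, limma adjusted p = 0.0061), AT1G08310 by 1.55 (SE 0.36, limma adjusted p = 0.012) and ORA47 by 1.12 (SE 0.31, limma adjusted p = 0.034). ORA47 was 3.39-fold lower with than without bleomycin in ku80 and 1.4-fold lower in Ws-2. The AP2/ERF gene AT1G19210 was not called (-0.43, SE 0.34). The other 12 that fell were unnamed, with effects of -0.88 to -1.97. Among them, 253259_at had a response of -3.28 in ku80 and 0.13 in Ws-2, so its averaged fall came from ku80 only. The 1 that rose was the unnamed 261927_at, at 40.8 and 91.6 in ku80 without and with bleomycin, against 122.6 and 253.2 in Ws-2 (1.11, SE 0.33, limma adjusted p = 0.048). Among the genes higher in ku80, the zinc finger gene AT5G60250 rose by 2.56 (SE 0.33, limma adjusted p = 7.6e-05), AT1G74010 by 1.37 (SE 0.34, limma adjusted p = 0.018), the transporter gene AT1G71140 by 1.23 (SE 0.32, limma adjusted p = 0.026) and the unnamed 266142_at by 1.33 (SE 0.33, limma adjusted p = 0.016). The unnamed 251428_at, far higher in ku80, fell by 1.11 (SE 0.29, limma adjusted p = 0.023). JRG21, CCOAMT and the 3 berberine bridge enzyme-like genes were not called, with effects of 0.10 to 0.78.

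The test has 1 residual degree of freedom, the change of the genotype difference between conditions, whose median size was 0.60 in the 73 and 0.39 in all measured probe sets, so spread is mostly borrowed from other probe sets. Quantile normalization left 4 of the 21 calls, the fit without an intensity trend 11 and a fit that kept all 22746 probe sets 0, with 1964 of those at an unadjusted p under 0.05. In the quantile normalized fit the limma adjusted p was 0.12 for ORA47, 0.079 for AT5G66650 and 0.075 for AT1G08310, AT1G74010 and AT1G71140, and ORA47 also missed the threshold with either other floor (0.057 and 0.055). Without the trend it was 0.118 for ORA47, 0.059 for AT5G66650 and 0.056 for AT1G74010.

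**Figure D3:**
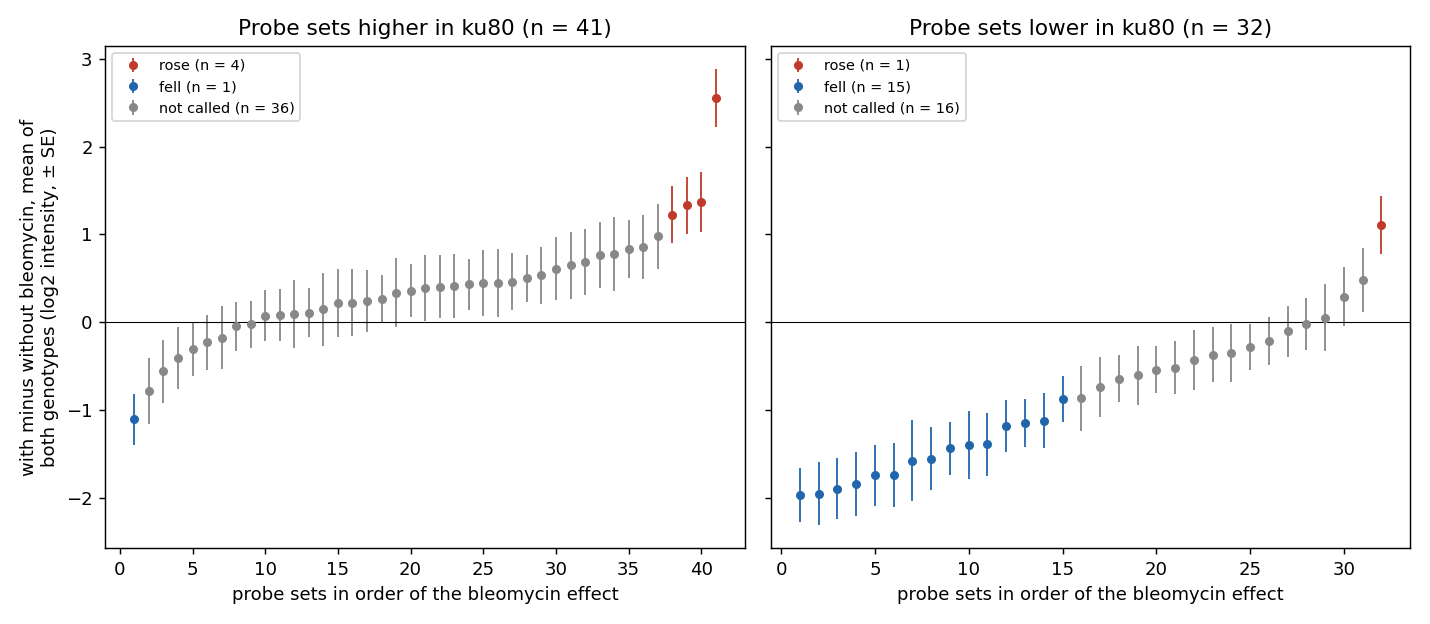
Bleomycin effect averaged over ku80 and Ws-2 (log2 intensity, with minus without the drug, bars are SE of the limma fit over 4 arrays) for the 41 probe sets higher in ku80 (left) and the 32 lower (right), each in order of size. Most of the lower probe sets lie under 0, with 15 that fell, while 4 of the higher ones rose.

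The wider gene groups were read through 9 lists of known genes, 3 of which hold genes of the choice. The lists were picked with earlier results of these data known, and their counts were not tested. Every list count below is to be read against the shares of all measured probe sets that passed the threshold. Without bleomycin these shares were 2.45% upwards and 2.2% downwards in ku80. With the drug they were 2.61% and 1.95%. Of the 27 berberine bridge enzyme-like genes, 22 were named on the array and 12 measured. Without bleomycin 8 of these were at least 2-fold higher in ku80 and 0 lower (median 1.23, against -0.01 over all measured probe sets), and with it 3 were higher and 0 lower (median 0.39, against 0.02). Next to AT1G26380 and AT1G26390, AT1G26410 was at 66.7 and 44.4 in ku80 without and with bleomycin, against 2.6 and 4.7 in Ws-2, and AT1G26420 was at 98.5 and 53.1 in ku80, against 0.4 and 28.1 in Ws-2. Both were higher in ku80 on each pair of arrays and missed the choice with the drug, with differences of at least 0.67 for AT1G26410, whose Ws-2 value was below the floor, and 0.92 for AT1G26420. AT1G26400 lay under the floor on all 4 arrays. AT4G20830, AT4G20860 and AT5G44380, also of the family, were higher by 1.2, 1.21 and 1.59 without and by 0.30, 0.33 and 0.45 with the drug.

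Of 30 jasmonate and ethylene genes, 7 were named on the array and 6 of these were measured. Without bleomycin 5 were at least 2-fold higher in ku80 (median 2.30), and with it 2 were higher and 1 lower (median 0.50). The 2 higher in both were the oxygenase genes JRG21 and AT2G38240. The defensin genes PDF1.2 and PDF1.2b, close copies whose separate values are uncertain, were higher in ku80 only without the drug (3.35 and 2.75) and lay at -1.05 and -0.03 with it.

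Of 39 rapid stress genes, 10 were named on the array and all 10 were measured. Without bleomycin 0 were at least 2-fold higher and 1 was lower in ku80 (median 0.11), and with it 0 were higher and 7 lower (median -1.55). ORA47 was the 1 gene lower in both. STZ, WRKY53, CML37, CML38, PUB22 and PUB23, which encode transcription factors, calcium sensors and ubiquitin ligases, lay between -0.23 and 0.48 without the drug and between -2.34 and -1.06 with it. CML37 was at 92.0 and 21.9 in ku80 without and with bleomycin, against 108.1 and 142 in Ws-2.

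The other lists held 0 genes of the choice. Of 16 hypoxia genes, 4 were named on the array and measured. All 4 were at least 2-fold higher in ku80 without bleomycin, and with it 0 were higher and 1 was lower. Of 17 salicylic acid genes, 3 were named on the array and measured. Of these 3, 0 differed without and 2 were lower with the drug, GRX480 and WRKY53, which is also on the rapid stress list. Of 11 drought and cold genes, 4 were named on the array and 3 of these were measured. Of the 3, HIS1-3 alone was lower, without the drug only (-2.43). Of 17 end joining and DNA damage genes, 2 were named on the array and measured. These were LIG4 (named ATLIG4 in the tables) and MND1 (ATMND1). Both were less than 2-fold different in both comparisons, at 0.37 and 0.30 for ATLIG4. No camalexin gene or reference gene of the lists was named on the array.

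**Figure D4:**
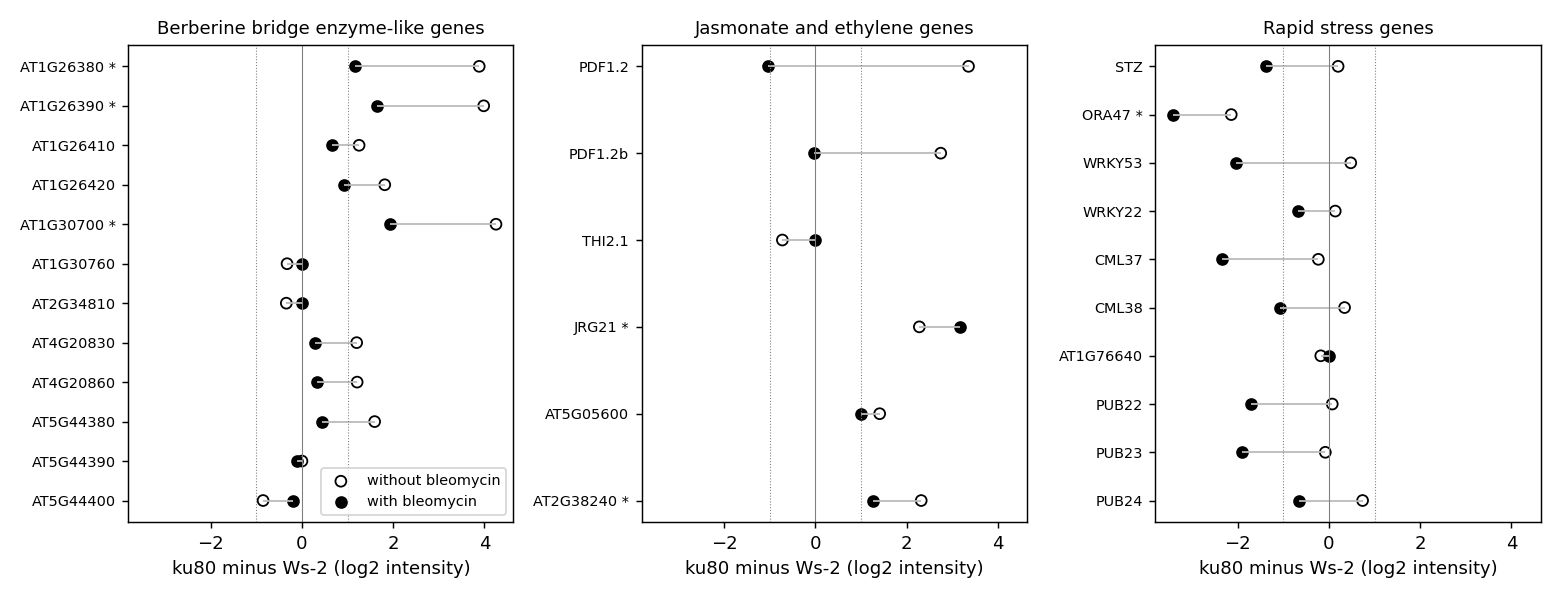
Difference between ku80 and Ws-2 (log2 intensity) without bleomycin (open) and with it (filled) for the measured genes of 3 lists, 1 array per group. Asterisks mark genes 2-fold different in both. Berberine bridge enzyme-like and jasmonate genes lie to the right mainly without the drug, while rapid stress genes lie to the left mainly with it, where only ORA47 is beyond -1 in both.

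The 29 named genes were unevenly spread over the chromosomes. Chromosome 1 held 19 of them (65.5%), against 26.1% of the 8173 measured genes with a name and a chromosome, and chromosome 4 held 0, against 14.9%. The share on chromosome 1 was 66.7% (12 of 18) among genes higher and 63.6% (7 of 11) among genes lower in ku80. Among named genes that differed in 1 condition only, chromosome 1 held 23.5% of those higher and 27.5% of those lower without bleomycin, and 35.8% and 32.6% with it. The 44 unnamed probe sets have no position here, so these shares describe the named genes only. By probe set number, the unnamed 255516_at and 255599_at lie on either side of the chromosome 4 gene WRKY22 (AT4G01250). The unnamed 253505_at and 253828_at lie likewise around ATMND1 (AT4G29170), also on chromosome 4. The 0 on chromosome 4 and the share on chromosome 1 therefore cannot be carried over to all 73, and the place of the unnamed was not tested.

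**Figure D5:**
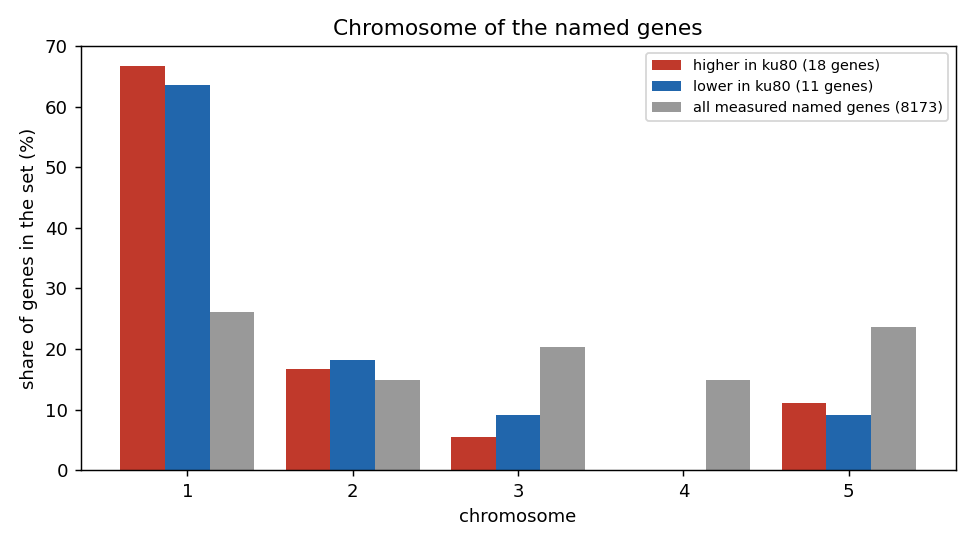
Share of named genes on each chromosome (%), for the 18 higher and the 11 lower in ku80 and for the 8173 measured named genes. Chromosome 1 holds 66.7% and 63.6% of the genes higher and lower, against 26.1% of all.

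KU80 itself lies on chromosome 1, but the named genes were not gathered around it. By gene order in RefSeq (assembly TAIR10.1), 8 of the 19 lay before KU80 and 11 after it, against 1129 and 986 of the measured named genes of the chromosome. The nearest were AT1G30700, with 808 protein-coding genes between, and AT1G60730, with 1152 between. Of 48 measured genes within 100 protein-coding genes of KU80 on either side, 0 belonged to the 73, 2 were at least 2-fold different without bleomycin and 0 with it, and their median differences were 0.00 and 0.01. Of all measured probe sets, 0.267% were higher and 0.208% lower in both comparisons. Without bleomycin 2.45% were higher and 2.2% lower, and with it 2.61% and 1.95%. With shares this low, counts among 48 genes say little about this region.

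Few of the named genes sat close together, and the unnamed probe sets, without a position here, could form no pairs. Of 406 pairs of the 29 genes, 2 (0.493%) started within 100 kb of each other, against 0.201% of all pairs of measured named genes. AT1G26380 and AT1G26390 were direct neighbours and both higher in ku80. AT2G41730, higher in ku80, and AT2G41800, lower in ku80, had 6 protein-coding genes between them. At 500 kb there were 14 pairs (3.45%, against 0.980% of all pairs). Of these 11 were on chromosome 1, 6 with both genes on the same side, such as AT1G60730 with AT1G61360, and 5 with opposite sides, such as AT1G74010, higher in ku80, with ORA47, lower in ku80.

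The nearest other measured named genes were mostly not on the same side in both comparisons, apart from the neighbours AT1G26380 and AT1G26390 already given. The nearest measured named genes on either side of the 18 higher genes, passing over genes of the choice, were 34 distinct genes, of which 8 (23.5%) were higher in ku80 in both comparisons, against 22.4% of all measured named genes. For the 11 lower genes, 4 of 22 neighbours (18.2%) were lower in both, against 21.3%. The median differences of these neighbours were -0.01 and -0.04 beside the higher genes and 0.04 and -0.01 beside the lower genes, without and with bleomycin. Not all were adjacent, as unnamed and unmeasured genes were passed over. The median number of genes between was 2 beside the higher and 0 beside the lower genes, and 16 lay between AT5G60250 and SIZ1. BGLU45, directly beside BGLU46 and of the same family, was at 33.9 and 116.3 in ku80 without and with bleomycin, against 29.7 and 36.7 in Ws-2, and so differed only with the drug (1.66). ATB2, an aldo-keto reductase gene close to AT1G60730, was at 258.6 and 334.5 in ku80, against 217.4 and 341.4 in Ws-2, with differences of 0.25 and -0.03. AT1G19200, beside AT1G19210, was lower in ku80 by 1.31 without and by 0.32 with the drug.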

How the data were processed

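The authors deposited linear intensities of 22810 probe sets on 4 arrays. Per the labels, biotin-labelled cRNA was hybridised to ATH1 arrays. The software that summarised the probes and its background correction are not given in the sources used here. Equal means after trimming 2% of values at each end show that the authors' deposited intensities had been scaled.

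The 64 control probe sets were set aside, values under 28 were raised to 28 and log2 was taken. Genes were named through the platform table and RefSeq (13436 probe sets with 1 gene matched, 503 with several genes, 8730 unnamed). The probe sets described and the gene lists were chosen with earlier results of these data known. All named members are described, and unnamed ones by the 2 with the largest smaller difference per direction. The additive model was fitted in R 4.3.3 by limma 3.58.1, with a trend on intensity (19.4 prior and 1 residual degree of freedom) and tested on simulated data. Other steps used Python 3.11.15. Alternatives were median ratio scaling, quantile normalization, floors of 20 and 40, a 3-fold threshold, other distances, no trend, no filter and a floor to be passed on all 4 arrays. The number of arrays limits the precision, and no spread between replicate arrays enters the p-values. They rest on the change of the genotype difference between conditions and on spread borrowed from other probe sets. A difference in drug response between the genotypes is counted as spread. Promoter motifs were planned and not analysed here, and no sequence was used.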

Additional observations from a re-analysis of the deposited data

Results flagged for a closer look

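Among the 73 probe sets, 2 were at least 2-fold lower with bleomycin in ku80 and at least 2-fold higher with it in Ws-2. AT1G26390 had a difference of responses, ku80 minus Ws-2, of -2.35 on the log2 scale (-1.03 in ku80 and 1.32 in Ws-2, where the value without the drug was below the floor, so that 1.32 and -2.35 are bounds that understate the size), and the unnamed 245038_at had -2.48, with intensities of 1172 and 579.3 in ku80 without and with the drug, against 101.3 and 279.9 in Ws-2. With 1 array per group the difference was not tested, and the response shares arrays with the values that chose the probe sets.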

How the results depend on the processing

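The 41 probe sets higher and 32 lower in ku80 became 34 and 36 with median ratio scaling (34 and 32 shared with the reported choice), 36 and 37 with quantile normalization (33 and 31 shared), 46 and 47 with the floor at 20 and 36 and 24 with the floor at 40. Only 25 and 20 lay above the floor on all 4 arrays, and 8 and 2 remained at a 3-fold threshold. Of the 29 named genes, 27 kept both differences past 2-fold under median ratio scaling, 26 under quantile normalization, 29 with the floor at 20 and 23 with the floor at 40, and none changed sign under these 4 settings. The 21 members called for bleomycin in limma became 11 without an intensity trend, 4 with quantile normalization and 0 with all probe sets in the fit (16 members and 1964 of 22746 probe sets at an unadjusted p under 0.05), where probe sets at the floor on all arrays have no spread. They became 19 with median ratio scaling, 17 with the floor at 20 and 15 with the floor at 40, all of them among the 21. Calls over all probe sets moved alike, 1112 as reported, 503 without a trend and 176 with quantile normalization. Pairs of named genes numbered 2 within 100 kb and within 50 kb, 1 within 20 kb and 14 within 500 kb. No paired analysis was possible because each group has 1 array and no replicate numbers are shared, beyond the additive model itself, which compares arrays within each genotype.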
